A study of Mus musculus with 12 samples.

Results

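The ATG8 proteins and the enzymes that attach them to membranes were followed in whole blood RNA of mice kept in low oxygen, of mice returned to normal oxygen and of mice that never left it. The members were 10 genes: the ATG8 genes Map1lc3a, Map1lc3b, Gabarap, Gabarapl1 and Gabarapl2, the protease genes Atg4a and Atg4b, and the conjugation genes Atg3, Atg5 and Atg7. They were taken by name, and every probe set that the platform annotation assigns to 1 of these genes alone was used. All 10 were measured, by 25 probe sets out of 45101 on the array, where 18194 genes have a probe set of their own. Of the 10, 1 gene had 1 probe set, 5 had 2, 2 had 3 and 2 had 4.

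C57Bl/10 wild type mice, 3 months old, formed 3 groups of 4, and each of the 12 Affymetrix Mouse 430 2.0 arrays holds the blood of 1 mouse. The recovery group (REC) spent 14 days in normobaric chronic hypoxia, with PO2 lowered from 21% to 8%, and then 14 days in normoxia. The chronic hypoxia group (CH) had the same 14 days of hypoxia and no recovery. The normoxia group (NX) stayed at 21%. Blood was drawn from the inferior vena cava of anaesthetised animals. The sample id field of the CH mice reads normoxic, against their titles and protocol, and the titles were followed.

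Autophagy encloses cytoplasm or organelles in a membrane sac that fuses with the lysosome. ATG8 proteins, which in mammals form the LC3 and GABARAP branches, are small ubiquitin-like proteins that are coupled to the lipid phosphatidylethanolamine on the growing sac, where they bind cargo receptors and the fusion machinery. ATG4 proteases trim the ATG8 precursor and later release ATG8 from the lipid; ATG7 activates the trimmed protein like an E1, ATG3 carries it like an E2, and ATG5, joined to ATG12 and held by ATG16L1, directs the transfer like an E3. In blood the pathway is best known from reticulocytes, the youngest circulating red cells, which clear their mitochondria and other organelles by autophagy as they mature.

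The values are signals on a linear scale, 1 per probe set and array, and changes are differences of log2(signal + 16) fitted with limma, so that the change of a dim probe set is understated. Calls were made where the Benjamini-Hochberg adjusted p, taken over the whole array, was under 0.05 and the change reached 2-fold. For each gene the probe set with the highest mean log2 signal stands as its representative. Array medians lay between 32.9 and 59.9, and 19.6% to 33.4% of the probe sets of an array were under a signal of 16. Of the 25 member probe sets, 9 were under 16 on at least 1 array. Only 1 of these was a representative, that of Atg7. The hybridization controls, added transcripts that are not from the mouse, were read by 18 probe sets on every array. Between groups these controls differed by 1.61 (CH minus NX), -0.81 (REC minus NX) and -2.42 (REC minus CH) in log2 signal. Scaling the arrays on these controls moved the median change over the array to -0.71 in CH against NX, 0.40 in REC against NX and 1.12 in REC against CH, against 0.11, -0.10 and -0.25 as deposited. For the members, changes under that scaling are given where they end a call or turn a direction.

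Promoter sequence from RefSeq (GRCm38.p6, from 250 bases before to 50 bases after an annotated start) was matched for 9 of the 10 genes, in 10 windows, of which Atg4a has 2. The windows of 4 genes are shown 5′ to 3′. Atg4a and Gabarapl2 had the widest spans between group means, Gabarap differed in CH and not detectably in REC, and Atg3 was never called. No gene called higher in REC than in CH is among them. Capitals mark matches on either strand to GATAA, which reads TTATC on the other strand and is a core of GATA factor motifs, to CACGTG, the E-box core bound by the MiT/TFE family, and to ACGTG, which reads CACGT on the other strand and is the core of the hypoxia response element; every CACGTG also holds it. The motifs were chosen after the values were seen. For Atg4a the upstream of its 2 windows is shown. All 4 windows are on the plus strand, the first at chrX:140953595-140953894, the second at chr8:111940453-111940752, the third at chr11:69991120-69991419 and the last at chr16:45158579-45158878.
Atg4a: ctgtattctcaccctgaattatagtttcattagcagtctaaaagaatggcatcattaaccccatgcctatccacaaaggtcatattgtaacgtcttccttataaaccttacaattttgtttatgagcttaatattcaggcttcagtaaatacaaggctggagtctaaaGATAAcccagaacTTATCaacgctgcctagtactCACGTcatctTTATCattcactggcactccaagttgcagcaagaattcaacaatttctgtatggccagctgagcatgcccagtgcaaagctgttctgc
Gabarapl2: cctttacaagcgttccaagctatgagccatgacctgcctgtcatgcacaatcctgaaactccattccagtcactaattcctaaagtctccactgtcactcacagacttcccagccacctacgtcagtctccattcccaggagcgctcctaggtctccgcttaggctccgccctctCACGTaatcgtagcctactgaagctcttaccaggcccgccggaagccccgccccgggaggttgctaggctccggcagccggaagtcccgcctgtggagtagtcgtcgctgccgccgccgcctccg
Gabarap: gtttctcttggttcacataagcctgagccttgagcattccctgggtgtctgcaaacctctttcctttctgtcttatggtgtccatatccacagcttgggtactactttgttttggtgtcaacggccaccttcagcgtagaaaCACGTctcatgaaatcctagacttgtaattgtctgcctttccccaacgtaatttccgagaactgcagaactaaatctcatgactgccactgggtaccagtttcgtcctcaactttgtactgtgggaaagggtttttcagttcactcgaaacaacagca
Atg3: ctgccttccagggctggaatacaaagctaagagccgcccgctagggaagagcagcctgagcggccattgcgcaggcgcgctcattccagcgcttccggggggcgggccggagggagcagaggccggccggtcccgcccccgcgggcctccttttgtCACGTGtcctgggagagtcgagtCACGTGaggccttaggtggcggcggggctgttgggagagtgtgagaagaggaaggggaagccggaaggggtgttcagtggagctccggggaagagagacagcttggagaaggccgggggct

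The upstream Atg4a window was the only one of the 10 with GATAA, which it held at 3 places, while 25.4% of all 32851 promoter windows of this length hold it. CACGTG occurred in 3 member windows, against 7.15% of all windows. It was at 2 places in that of Atg3 and at 1 each in those of Atg5 and Atg7. The Atg7 window, at chr6:114670846-114671145, lies inside the gene, which starts at 114643127. ACGTG occurred in 6 member windows, including the upstream Atg4a window and those of Gabarap and Gabarapl2, against 19.6% of all windows. The second Atg4a window held none of these motifs. The share of G and C was 40.0% in the upstream Atg4a window and 67.3% in that of Atg3, with a median of 52.7% over all windows. These matches describe letters only, and binding was not measured.

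In CH blood the members were split by their representative probe sets. Transcripts of 5 genes rose at least 4-fold in their representative probe sets: Map1lc3b, Gabarap and Gabarapl2 among the ATG8 genes, and both proteases, Atg4a and Atg4b. Of the other 5, Atg7 fell about 2-fold, and Map1lc3a, Gabarapl1, Atg3 and Atg5 were not called. No other probe set of Map1lc3b, Atg4b or Atg7 was called in CH. With the probe sets of a gene averaged, the changes were 0.30 for Map1lc3b, 0.79 for Atg4b and -0.39 for Atg7, none called. Against NX, 5 of 10 genes were higher in CH by representative probe set and 1 was lower, with a median log2 change of 1.5, while 9.08% of all 18194 genes were higher and 19.5% lower, with a median of 0.05. Over all 25 probe sets, 6 were higher, from 5 genes, and 3 lower, from Atg5 and Atg7, with a median of -0.28 (8.04% higher and 13.9% lower among all probe sets, with a median of 0.11).

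In REC blood, 14 days after the end of hypoxia, no member was above its NX level by the call used and 2 were below it. Map1lc3b and Gabarapl2 fell, and 3 probe sets were lower in all, against 2.74% of all probe sets and 1.79% of all genes. The count of 0 higher probe sets from limma stands beside 1.62% of all probe sets and 2.50% of all genes; at an unadjusted p under 0.05, 4 member probe sets were higher, and an ordinary linear model without moderation also called 0. Scaling on the hybridization controls gave 11 higher of 25, with Map1lc3a at 1.61 (adjusted p = 0.00208), Gabarapl1 at 1.26 (adjusted p = 0.0143), Atg5 at 1.34 (adjusted p = 0.00551) and Atg7 at 1.39 (adjusted p = 0.00808) called by their representative probe sets. The median log2 change of the 10 genes was 0.23 (-0.02 over all genes). Set against CH directly, 5 genes were lower in REC (12.3% of all genes) and 3 were higher (23.3%), namely Gabarapl1, Atg5 and Atg7. Over probe sets, 7 were lower (12.6% of all) and 6 higher (15.2%).

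**Figure D1:**
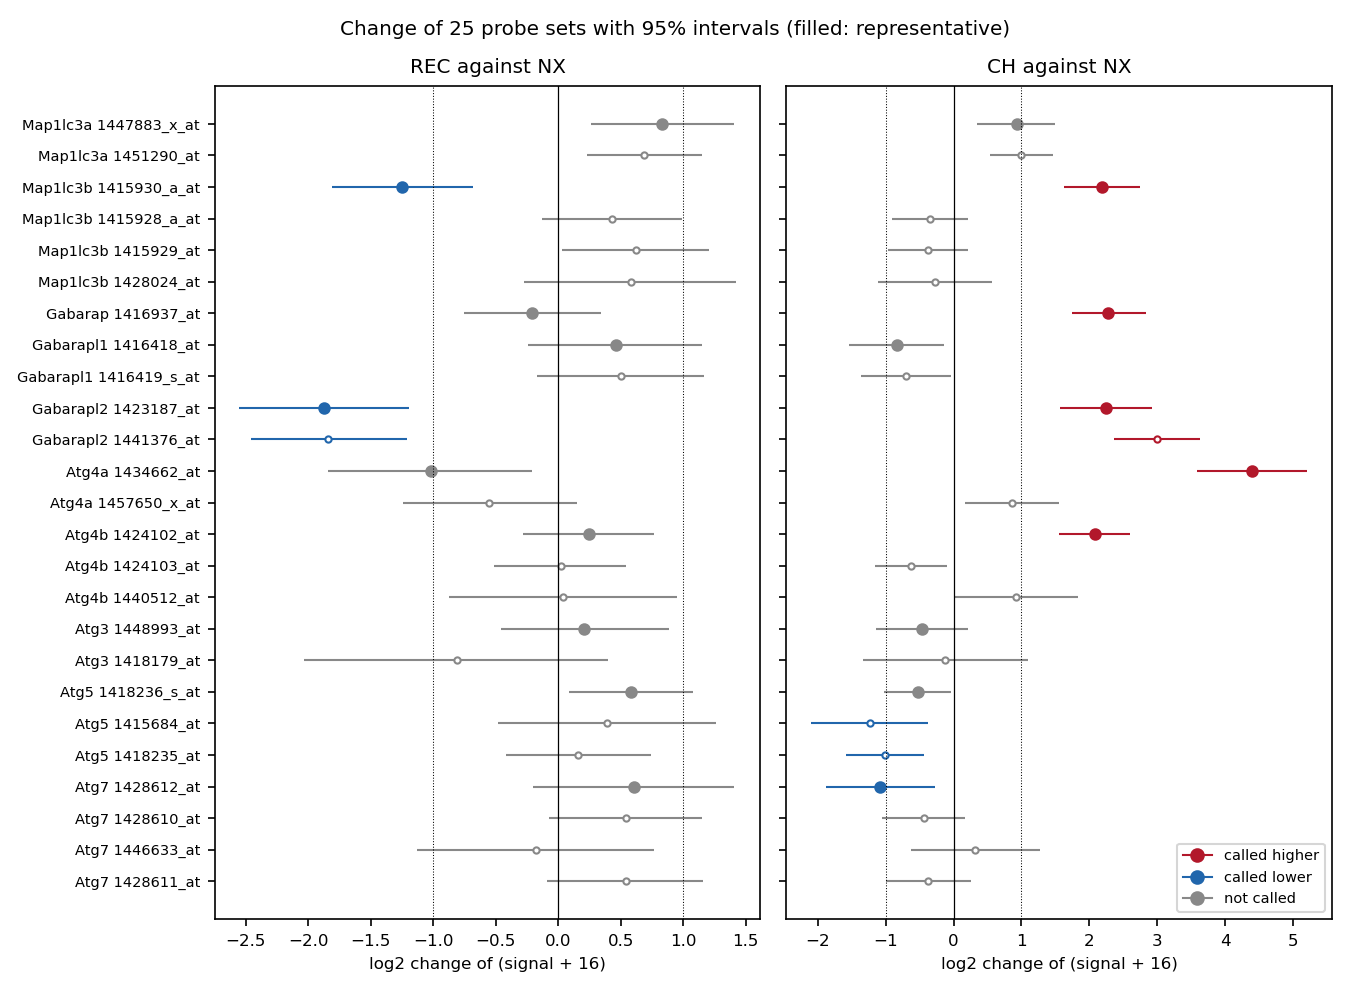
Log2 change of (signal + 16) of the 25 member probe sets in REC against NX (left) and CH against NX (right), with 95% intervals from limma; filled points are the representative probe set of a gene, dotted lines mark 2-fold, and colour marks the call. In CH the 6 higher calls reach from 2.08 to 4.39, and in REC the 3 calls, of Map1lc3b and Gabarapl2, are all below 0.

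Map1lc3b encodes LC3B, the ATG8 protein most used as a marker of autophagosomes (GRCm38.p6 chr8:121590438-121598760). Its representative probe set, 1415930_a_at, read 6905, 3644, 3876 and 4477 in the REC arrays, 42316, 48071, 46004 and 64884 in the CH arrays and 11351, 9535, 9144 and 14103 in the NX arrays. The 3 groups did not overlap, with CH highest and REC lowest. The change was 2.19 in CH against NX (SE 0.26, adjusted p = 4.22e-05), a 4.56-fold increase, and -1.25 in REC against NX (SE 0.26, adjusted p = 0.0149). REC against CH gave -3.44 (adjusted p = 2.86e-07). Quantile normalization ended the CH call of Map1lc3b, with a change of 0.38, as did scaling on the hybridization controls, with 0.58. The REC call against NX was lost under scaling on the hybridization controls (-0.44, adjusted p = 0.22), with a pseudocount of 1 (-1.25, adjusted p = 0.0656), with arrays centred on their medians (-1.09, adjusted p = 0.0641), without REC replicate 2 (-1.14, adjusted p = 0.0629), without REC replicate 3 (-1.17, adjusted p = 0.0606) and without NX replicate 4 (-1.12, adjusted p = 0.0557).

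Gabarapl2 encodes GATE-16, a GABARAP-branch ATG8 protein first described in transport within the Golgi (chr8:111940703-111952915). Probe set 1423187_at read 4079, 1411, 1637 and 2190 in REC, 28279, 36070, 38337 and 49329 in CH, and 6468, 8333, 7120 and 9797 in NX. All CH arrays were above all NX arrays, and all REC arrays were below them. Gabarapl2 rose 4.75-fold in CH (log2 change 2.25, SE 0.32, adjusted p = 1.56e-04) and fell in REC to 2329 ± 1211, against 7929 ± 1465 in NX (SD, n = 4 each; log2 change -1.87, SE 0.32, adjusted p = 0.0045). Its second probe set, 1441376_at, gave 3.00 in CH and -1.84 in REC (adjusted p = 8.52e-06 and 0.00319), and its signals of 92.8 to 196 in REC, 2952 to 7137 in CH and 441 to 619 in NX also did not overlap. The CH change of the representative probe set was 0.40 under quantile normalization and 0.64 under scaling on the hybridization controls, both short of the call.

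Gabarap encodes the protein that names its branch, found first as a binding partner of the GABA-A receptor (chr11:69991370-69994949). Its 1 probe set, 1416937_at, read 3381, 2685, 2606 and 2397 in REC, 12844, 15322, 13680 and 21420 in CH, and 2226, 3876, 3153 and 3716 in NX. The lowest CH array was above every other array, while REC and NX overlapped. The change was 2.28 in CH against NX (SE 0.26, adjusted p = 2.31e-05, 4.87-fold) and -0.21 in REC against NX, with a 95% interval of -0.75 to 0.34 (adjusted p = 0.755). Quantile normalization gave 0.78 in CH, and scaling on the hybridization controls gave 0.67, neither called. Scaling on these controls also turned the REC change against NX to 0.60 (adjusted p = 0.192) and left -0.08 in REC against CH, which was -2.49 as deposited (adjusted p = 4.77e-06).

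Gabarapl1 encodes the third GABARAP-branch protein (chr6:129533192-129542331) and did not rise with the others. Probe set 1416418_at read 1442, 897, 757 and 958 in REC, 259, 403, 455 and 493 in CH, and 438, 854, 584 and 1180 in NX. All REC arrays were above all CH arrays, and the NX arrays overlapped with both. The change was -0.84 in CH against NX (SE 0.33, adjusted p = 0.069), 0.46 in REC against NX (adjusted p = 0.531) and 1.30 in REC against CH (SE 0.33, adjusted p = 0.00656). The second probe set, 1416419_s_at, gave -0.70, 0.50 and 1.20 for these comparisons, with only the last called. Without NX replicate 1 the CH change was -1.07 (adjusted p = 0.0242), a call, as was the -2.36 under scaling on the hybridization controls (adjusted p = 1.96e-05). Under quantile normalization the REC change against CH was 0.96, just short of 2-fold.

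Map1lc3a encodes LC3A, the close relative of LC3B (chr2:155276364-155278073). Probe set 1447883_x_at read 240.3, 219.9, 191 and 174 in REC, 200.4, 196, 149 and 390 in CH, and 117, 109.6, 109.6 and 96.6 in NX. Every REC and every CH array was above the 4 NX arrays, which lay close together. The change was 0.93 in CH against NX (adjusted p = 0.0183) and 0.83 in REC against NX (adjusted p = 0.0971), both under 2-fold. The second probe set, 1451290_at, lay just outside the call in CH, with a change of 1.00, a fold of 1.99 and an adjusted p of 0.00312, and gave 0.69 in REC (adjusted p = 0.0852). For the first probe set the CH change was called under quantile normalization (1.23, adjusted p = 0.00716) and without CH replicate 3 (1.1, adjusted p = 0.0056), and scaling on the hybridization controls turned it to -0.52 (adjusted p = 0.164). The suffix _x_at marks a probe set whose probes may bind other transcripts.

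**Figure D2:**
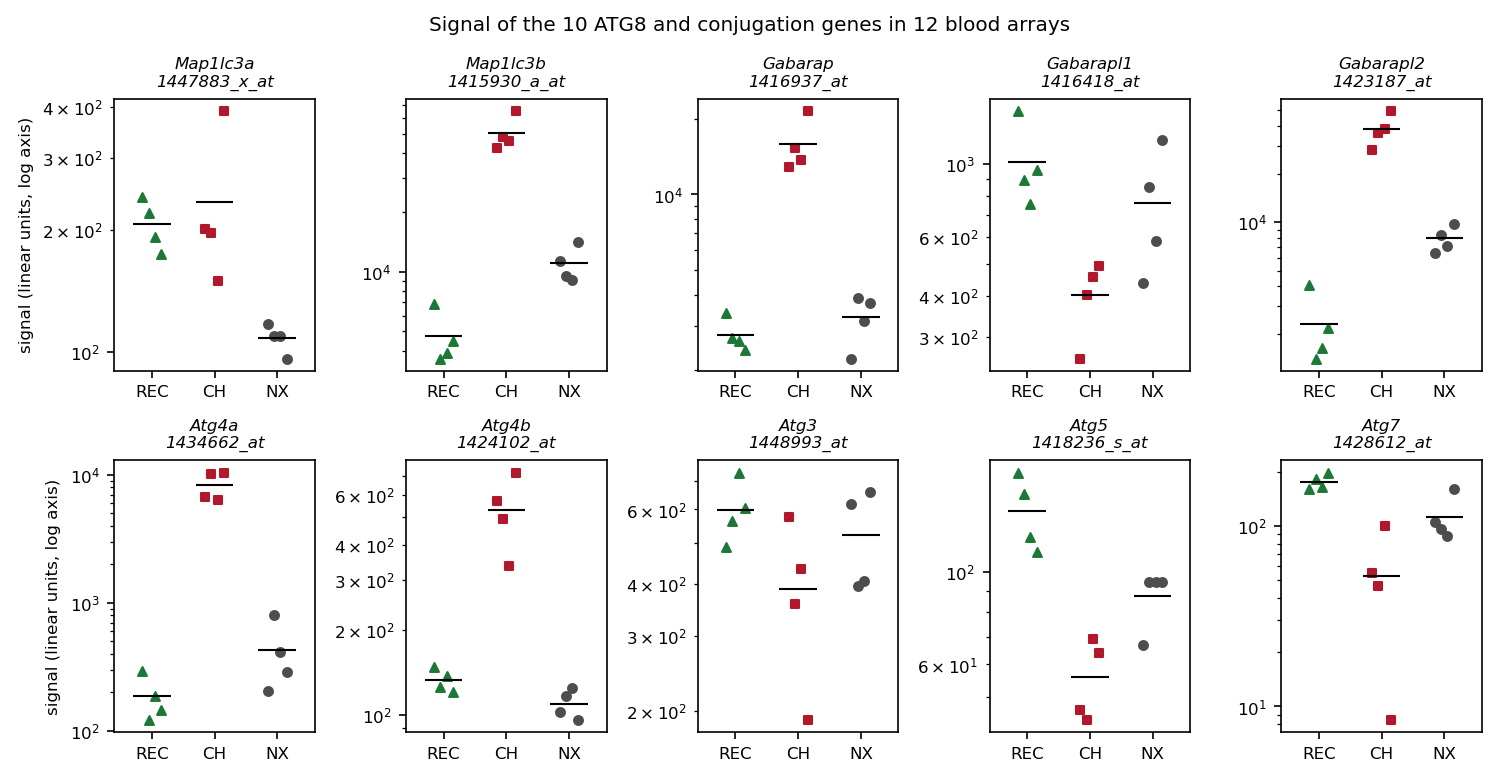
Signal (linear units on a log axis) of the representative probe set of each member in the 4 REC (triangles), 4 CH (squares) and 4 NX (circles) arrays, with the arithmetic mean of each group as a bar. The CH arrays of Map1lc3b, Gabarap, Gabarapl2, Atg4a and Atg4b sit above all others, whereas for Gabarapl1, Atg5 and Atg7 the CH arrays lie below all REC arrays.

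Whether the ATG8 genes differed from each other in their change was tested on the difference of their log2 signals within each array, with exact two-sided permutation tests of 4 against 4 arrays, whose smallest p is 0.029. Of the 10 pairs, 7 differed in CH against NX and 7 in REC against NX at an adjusted p of 0.041. In CH, the change of Gabarap exceeded that of Gabarapl1 by 3.12 (SE 0.22), that of Map1lc3b exceeded it by 3.03 (SE 0.30), and that of Gabarapl2 by a like amount, Gabarapl1 minus Gabarapl2 being -3.09 (SE 0.19). Map1lc3a lay in between, 1.77 above Gabarapl1 (SE 0.45), with Map1lc3a minus Map1lc3b at -1.26 (SE 0.25). By these probe sets the 3 genes that rose were close to each other: Map1lc3b minus Gabarap was -0.09 (SE 0.23), Map1lc3b minus Gabarapl2 was -0.06 (SE 0.15) and Gabarap minus Gabarapl2 was 0.03 (SE 0.13), with exact p-values of 0.743, 0.714 and 0.857 before adjustment.

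These 3 genes separated in REC. Gabarap minus Gabarapl2 was 1.66 (SE 0.29) and Map1lc3b minus Gabarap was -1.04 (SE 0.27), each with an adjusted exact permutation p of 0.041 and no overlap between REC and NX arrays. Map1lc3b minus Gabarapl2 was 0.62 (SE 0.19, adjusted exact p = 0.063), which did not pass. Gabarapl1 minus Gabarapl2 was 2.32 (SE 0.25) and Map1lc3a minus Gabarapl2 was 2.70 (SE 0.36), the widest of the 10 differences. Map1lc3a minus Gabarapl1 was 0.38 (SE 0.38) and Gabarap minus Gabarapl1 was -0.66 (SE 0.21), neither past the threshold (adjusted exact p = 0.400 and 0.063). The differences that involve Map1lc3b depended on its probe set. With the probe sets of each gene averaged, Map1lc3b minus Gabarap was -1.98 and Map1lc3b minus Gabarapl2 was -2.33 in CH (adjusted exact permutation p = 0.036 for each), and Map1lc3b minus Gabarapl2 was 1.95 in REC (adjusted exact p = 0.048). Map1lc3a minus Map1lc3b was then 0.67 in REC (adjusted exact p = 0.071), which did not pass. Gabarap minus Gabarapl2 in CH also turned, to -0.34 (adjusted exact p = 0.063).

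Atg4a, one of the ATG8-trimming proteases, which favours the GABARAP branch in human cells, had the widest span of the 10 genes, 5.42 between its CH and REC means in log2 signal (chrX:140953845-141164194). Probe set 1434662_at read 292, 121, 185 and 145 in REC, 6674, 10194, 6346 and 10419 in CH, and 203, 801, 410.2 and 288 in NX. The lowest CH array stood far above the highest array of the other groups, and REC and NX overlapped. The CH change against NX was 4.39 (SE 0.38, adjusted p = 3.67e-06), a 21.0-fold increase, and REC against CH gave -5.42 (adjusted p = 1.29e-07). In REC against NX the change was -1.02, with a 95% interval of -1.84 to -0.21 (adjusted p = 0.16). With array weights this last change was -1.36 (adjusted p = 0.00619), which is a call. The second Atg4a probe set, 1457650_x_at, was dim, at 21.1 to 62.5 in CH and 6.22 to 44.8 in NX, and its change of 0.86 was not called (adjusted p = 0.0617).

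Atg4b, the protease with the broadest activity on ATG8 precursors in human cells (chr1:93754905-93789606), read 148, 125, 137 and 120 in REC, 570.4, 492, 335 and 719 in CH, and 102, 116, 124 and 95.7 in NX by probe set 1424102_at. The CH arrays were again all above the rest, and REC and NX overlapped. Its change was 2.08 in CH (SE 0.25, adjusted p = 3.64e-05, 4.22-fold) and 0.25 in REC against NX (95% interval -0.28 to 0.77, adjusted p = 0.684), and REC against CH gave -1.83 (adjusted p = 5.47e-05). Scaling on the hybridization controls gave 0.56 in CH and turned REC against CH to 0.44, neither called.

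The conjugation genes did not share the rise. Atg7, the E1-like enzyme (chr6:114643127-114860604), read 161, 182, 164 and 198 in REC, 54.9, 46.8, 101 and 8.41 in CH, and 105, 96.3, 88.0 and 161 in NX by probe set 1428612_at. REC was above CH without overlap, and CH overlapped with NX through 1 CH array. The change was -1.08 in CH against NX (SE 0.38, adjusted p = 0.0449) and 1.68 in REC against CH (SE 0.38, adjusted p = 0.00299), with 0.61 in REC against NX (adjusted p = 0.452). The CH call was lost on leaving out any single array but CH replicate 3, with adjusted p-values of 0.0524 to 0.132, and the change was -0.65 without CH replicate 4, the dim array. It was also lost with a pseudocount of 1 or 64, without moderation, with only the arrays compared and with array weights (adjusted p from 0.0399 to 0.106, with changes from -1.47 to -0.64). The other 3 Atg7 probe sets had changes of -0.44, 0.32 and -0.37 in CH, none called. The mean of all 4 changed by -0.39 in CH against NX (adjusted p = 0.241), which ended the call. It changed by 0.77 in REC against CH, under 2-fold.

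Atg5, the partner of ATG12 in the E3-like complex (chr10:44268322-44364299), gave lower calls in CH by 2 of its 3 probe sets. Probe set 1415684_at read 107, 188, 116 and 105 in REC, 72.9, 16.6, 62.1 and 3.72 in CH, and 82.7, 102, 108 and 77.9 in NX, with a change of -1.23 (SE 0.41, adjusted p = 0.034), and 1418235_at changed by -1.01 (SE 0.27, adjusted p = 0.0118). In neither did CH overlap with NX. The brighter representative, 1418236_s_at, read 173, 154, 121 and 112 in REC, 46.7, 44.1, 69.1 and 64 in CH, and 66.7, 94.8, 94.4 and 94.6 in NX, where the CH change of -0.53 was not called (adjusted p = 0.106). All 3 probe sets were called higher in REC than in CH, by 1.62, 1.17 and 1.11 in the order named. In REC against NX the changes were 0.39, 0.16 and 0.58, none called. For the representative, scaling on the hybridization controls gave -1.68 in CH against NX (adjusted p = 1.46e-04), a call, and a pseudocount of 64 left 0.76 in REC against CH, under 2-fold.

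Atg3, the E2-like enzyme (chr16:45158829-45188538), was called in no comparison. Probe set 1448993_at read 489, 563, 733 and 604 in REC, 576, 358, 434 and 190 in CH, and 620, 395, 407 and 662 in NX, and all 3 groups overlapped. The change was -0.47 in CH against NX (95% interval -1.14 to 0.21) and 0.21 in REC against NX (95% interval -0.46 to 0.89), and the CH interval reached past 2-fold downward. Scaling on the hybridization controls gave -1.96 in CH against NX (adjusted p = 2.11e-04) and 2.97 in REC against CH (adjusted p = 1.46e-06), both calls. Averaging both Atg3 probe sets turned the REC change to -0.30 (adjusted p = 0.784). The second, 1418179_at, was dim and uneven, at 7.60 to 29.0 in REC, 1.09 to 118 in CH and 14.2 to 139 in NX.

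Probe sets of a single gene did not always agree, which touches Map1lc3b, Atg4b and Atg4a most. For Map1lc3b, 1415928_a_at read 2549, 2025, 2008 and 2302 in REC, 1004, 1178, 1183 and 1955 in CH, and 1252, 1764, 1466 and 2222 in NX, with changes of -0.34 in CH and 0.43 in REC against NX, neither called. The third probe set, 1415929_at, gave -0.37 and 0.62, and the dim 1428024_at gave -0.28 and 0.58. The change of 1415930_a_at exceeded that of 1415928_a_at by 2.53 in CH, and the difference in REC was -1.68 (p = 0.029 in both, the smallest possible, by the exact permutation test). Thus 1 of 4 Map1lc3b probe sets carried the rise in CH and the fall in REC. The mean over the 4 gave 0.30 in CH against NX, 0.09 in REC against NX and -0.21 in REC against CH (adjusted p = 0.485), none called.

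For Atg4b, 1424103_at read 99.8, 111, 146 and 73.5 in REC, 79.1, 46.4, 72.4 and 51.7 in CH, and 115, 94.0, 115 and 91.4 in NX. Its CH arrays lay below its NX arrays, with a change of -0.63 (adjusted p = 0.0712), and the representative exceeded it by 2.70 in CH (exact permutation p = 0.029). The representative and 1424103_at had near means in NX (109.3 and 103.8) and in REC (132.5 and 107.5), so CH weighed most in that choice. The mean of the 3 Atg4b probe sets changed by 0.79 in CH against NX and by -0.69 in REC against CH, both under 2-fold. For Atg4a the representative exceeded the dim probe set by 3.53 in CH (exact permutation p = 0.029). Smaller differences reached the same exact permutation p in other genes. Gabarapl2 1423187_at minus 1441376_at was -0.75 in CH against NX. Atg3 1448993_at minus 1418179_at was 1.03 in REC against NX and 1.38 in REC against CH. Atg5 1418236_s_at minus 1418235_at was 0.43 in REC against NX, and Atg7 1428612_at minus 1446633_at was 2.18 in REC against CH. The comparisons between probe sets of a gene were chosen after the values were seen. Where along each transcript the probes lie was not analysed here.

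**Figure D3:**
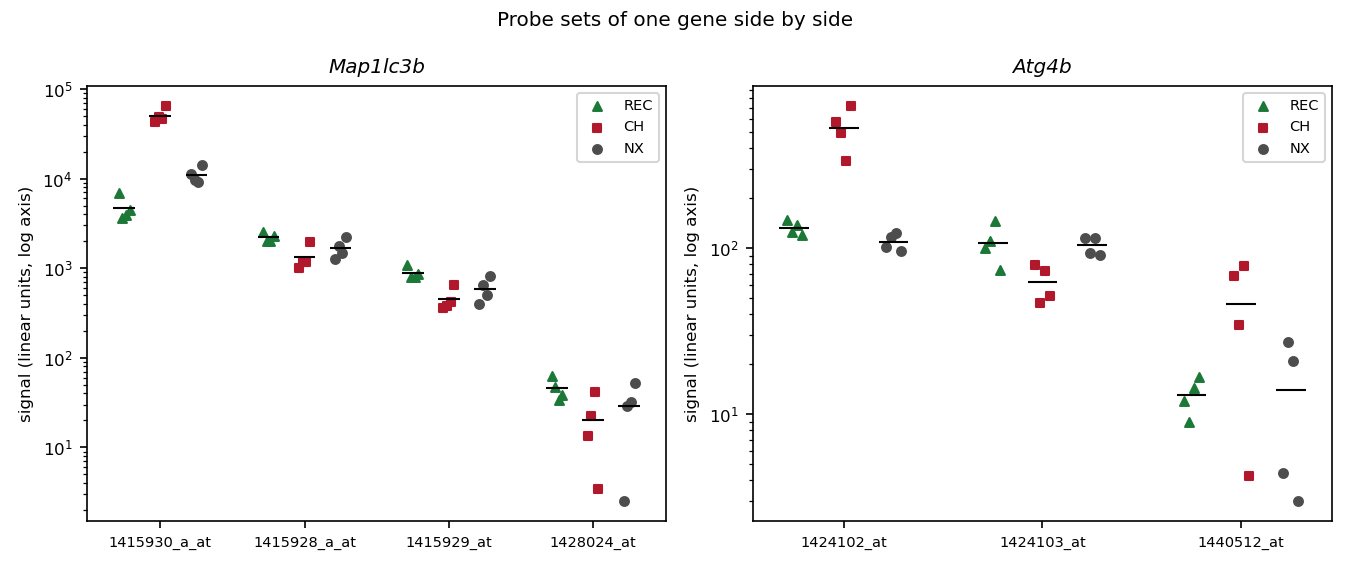
Signal (linear units on a log axis) of the 4 probe sets of Map1lc3b and the 3 of Atg4b in the 4 REC (triangles), 4 CH (squares) and 4 NX (circles) arrays, with group means as bars. The CH arrays are highest by 1415930_a_at and 1424102_at, but not by 1415928_a_at, 1415929_at or 1424103_at.

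Markers of some blood cell types also differed between the groups. Of 10 red cell precursor markers, 6 had a probe set of their own, 5 were higher in CH and 3 were lower in REC than in NX, with medians of 2.90 and -1.34. Their summed signal ran from 4909 to 15180 in REC, from 104395 to 162580 in CH and from 21334 to 32516 in NX. The groups thus ranked as they did for the representative probe sets of Map1lc3b and Gabarapl2. Alas2, the first enzyme of erythroid heme synthesis, averaged 6799 ± 3569 in REC, 59068 ± 11736 in CH and 17848 ± 4837 in NX (SD, n = 4 each). Hba-a1, an α-globin gene, was read by a single-gene probe set at 1.16 to 25.4 over all arrays and gives no measure of globin. Of the white cell markers in CH, 4 of 5 measured B cell and 5 of 5 T cell genes were lower, with summed signals of 1937 to 11085 in CH against 15773 to 19402 in NX for B cells, and 954 to 3699 in CH against 4183 to 5896 in NX for T cells. NK cell genes had 1 higher and 2 lower of 4 in CH and 2 higher in REC, and of the monocyte genes 1 of 5 was lower in CH. That monocyte count was close to the 19.5% of all genes that were lower in CH. The 5 neutrophil and 6 platelet genes gave 0 calls by limma in CH and in REC against NX, and at an unadjusted p under 0.05 only 1 platelet gene was higher in REC. The part of cell composition in the changes of the ATG8 and conjugation genes was not tested, and in bulk blood fewer cells of a type and less RNA per cell cannot be told apart.

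The rest of the autophagy machinery was split as well. Of 56 further genes in 7 lists, 54 were measured, and in CH 11 were higher (20.4%, against 9.08% of all genes) and 19 lower (35.2%, against 19.5%), with a median log2 change of -0.50 (0.05 over all genes). In REC against NX, 1 was higher (1.85%, against 2.50%) and 2 lower (3.70%, against 1.79%), with a median of 0.08. Each of these genes was read by its representative probe set alone. Their changes were not examined under the other settings, scaling on the hybridization controls among them. Under that scaling the CH rises of Map1lc3b, Gabarap, Gabarapl2 and Atg4b, of 2.08 to 2.28 as deposited, lost their calls.

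Among 7 other conjugation and ATG4 genes, Atg12, the ubiquitin-like partner of ATG5, rose by 2.03 in CH (adjusted p = 7.02e-05), while Atg16l2, a relative of the ATG5 scaffold, changed by -1.75 and the protease gene Atg4c by -1.16; the other 4 were not called. Of the 5 genes of the ULK1 complex, which starts autophagosome formation, only Atg101 was called in CH, at -1.43. That 1 of 5 was close to the 19.5% of all genes that were lower. The 8 genes of the PI3-kinase complexes, which mark the forming membrane with phosphatidylinositol 3-phosphate, had 1 higher and 6 lower. Becn1, encoding Beclin 1, rose by 2.12 (adjusted p = 6.49e-05), whereas Pik3r4, its regulatory kinase subunit, changed by -2.0 and Rubcn, an inhibitor of the complex that holds UVRAG, by -2.55. Of 10 genes for membrane supply, Wipi1, a reader of that lipid, rose by 3.47 (adjusted p = 6.28e-06), and Atg2b, a lipid transfer protein, and Wdr45b, another reader, changed by -1.57 and -1.50.

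Cargo receptors that bind ATG8 proteins had 5 of 11 measured genes higher and 4 lower in CH. Sqstm1, encoding p62, read 904, 803, 833 and 674 in REC, 3965, 5107, 2942 and 7540 in CH, and 354, 654, 566 and 613 in NX, a CH change of 3.07 (SE 0.30, adjusted p = 8.25e-06). Tax1bp1 rose by 2.93 and Calcoco1 by 2.84. In REC, Ncoa4, the receptor for ferritin, changed by -2.54 against NX (SE 0.36, adjusted p = 0.00167), and Tax1bp1 by -1.28 (SE 0.24, adjusted p = 0.00872). Their CH changes against NX were 2.11 and 2.93. Of 7 fusion genes, Snap29, a SNARE of the autophagosome, rose by 1.77 in CH, while Plekhm1, an adaptor between ATG8 proteins and lysosomes, and Rab7, the late endosome GTPase, changed by -1.56 and -1.36. Vamp8, the lysosomal SNARE, was the 1 gene of the 7 lists called higher in REC than in NX, by 1.24 (adjusted p = 0.0168). Among 6 transcription factors that act on autophagy genes, Foxo3 and Tfe3 rose by 1.69 and 1.54 in CH, and Foxo1 changed by -2.20.

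**Figure D4:**
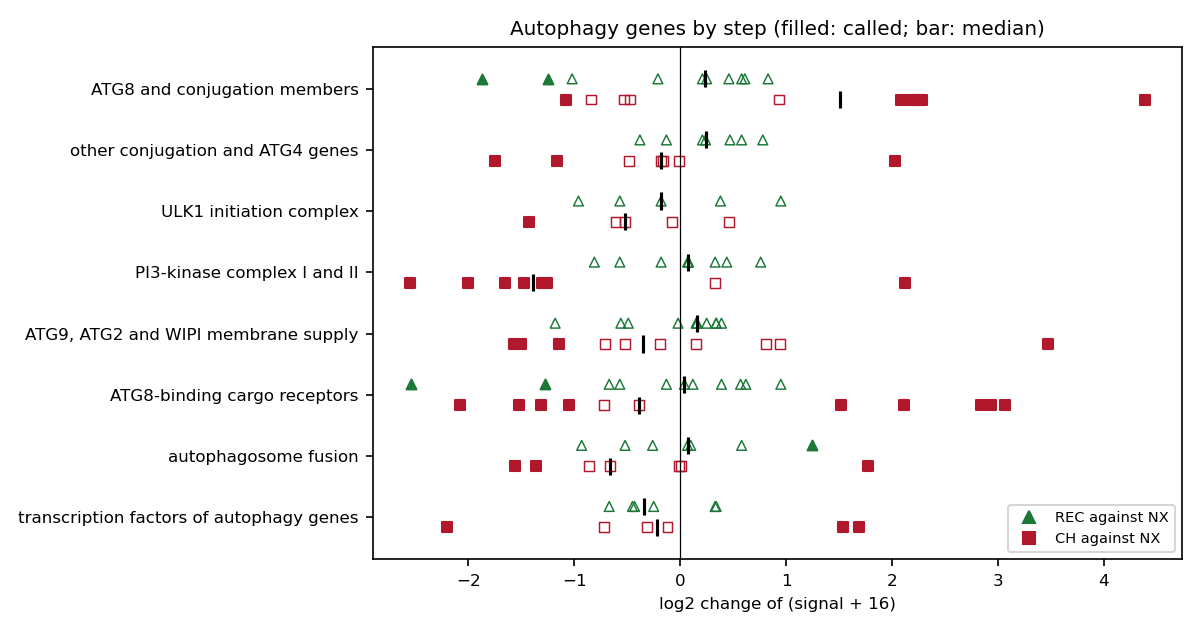
Log2 change of (signal + 16) of the 10 members and of 54 further autophagy genes by step, 1 point per gene (representative probe set), in REC against NX (triangles) and CH against NX (squares), with filled points called and a bar at the median of each row. The members have a CH median of 1.5, above the medians of the other 7 rows, which lie between -1.39 and -0.18. Over all 25 member probe sets the CH median is -0.28.

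The genes most like the members with the widest spans were found by the root mean square difference of log2 signals over the 12 arrays, each gene centred on its NX mean. For Atg4a these were Prnp, the prion protein gene, at 0.37, Ctse, which encodes the aspartic protease cathepsin E, at 0.38, and Tceal8 at 0.41, where the median over all genes was 2.69. They changed by 4.42, 4.24 and 4.38 in CH against NX, and by -1.39, -1.49 and -0.97 in REC against NX, beside 4.39 and -1.02 for Atg4a. For Gabarapl2 they were Ube2r2, a ubiquitin-conjugating enzyme gene, at 0.15, Plaat3, which encodes a phospholipase, at 0.18, and Sh3glb1, which encodes the membrane-curving protein endophilin B1, at 0.21, with a median of 1.81 over all genes. Their changes of 2.21, 2.02 and 2.14 in CH and of -2.01, -1.78 and -2.18 in REC stood beside 2.25 and -1.87 for Gabarapl2. All of these genes were picked for closeness over the same 12 arrays, so the likeness of their changes follows from the choice.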

How the data were processed

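Whole blood RNA of 12 mice was measured on 12 Affymetrix Mouse 430 2.0 arrays, 4 per group, grouped by the titles in the labels. The values deposited by the authors are intensities on a linear scale, 1 per probe set and array, with a mean of 150.0 on every array once 2% of the values are trimmed at each end. The study's own analysis used GC-RMA, which gives log2 values, so these signals are not that output; which program made them is not stated there or in the labels. The labels name NuGEN amplification and the Methods One-Cycle labelling. No array pair was identical, and no batch, scan date, detection call or depth was at hand, so the number of arrays limits the precision.

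The platform annotation names 1 gene for 34958 of the 45101 probe sets, several for 932 and none for 9211, and 34754 symbols were matched by gene number. log2(signal + 16) was fitted in R 4.3.3 by limma 3.58.1 (a mean per group, eBayes, 9 residual degrees of freedom), with p-values adjusted over all probe sets, and tested on simulated data. Exact permutation tests used scipy 1.17.1 in Python 3.11.15, with pandas 2.3.3 and figures from matplotlib 3.10.9. Text names all 10 members, up to 3 called genes per autophagy list with the largest CH change and up to 2 with the largest REC change against NX, and the 3 genes most like the 2 members of widest span; Alas2, Hba-a1 and the motifs were added after values were seen. Members and lists were chosen with earlier results of these data known. Promoters and positions are RefSeq's (GRCm38.p6). Alternatives were other scalings, pseudocounts, filters, variance models and thresholds, the replicate number as a block, each array left out and averaging the probe sets of a gene.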

Additional observations from a re-analysis of the deposited data

Results flagged for a closer look

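Of 75 groups of 4 arrays, 3 for each of the 25 member probe sets, 2 held an array set far apart from the others of its group, where chance alone would give about 3.75. In Map1lc3a, probe set 1451290_at read 122 in REC replicate 2, while the other 3 REC arrays lay between 103 and 105, a gap of 0.881 of the range. In Atg5, probe set 1418236_s_at read 66.7 in NX replicate 1, while the other 3 NX arrays lay between 94.4 and 94.8, a gap of 0.986 of the range.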

How the results depend on the processing

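The 30 changes of the 10 genes were recomputed under 24 settings each: 4 of the 16 calls held in every setting, and of all values 659 kept their direction and side of the threshold, 39 lost the call, 13 gained one and 9 changed sign. Scaling on the hybridization controls moved most counts of member probe sets: in CH against NX 2 were higher and 11 lower (6 and 3 as reported), in REC against NX 11 were higher (0), and in REC against CH 16 were higher and 4 lower (6 and 7). The count of 3 lower in CH was 1 with a pseudocount of 1, without moderation, with only the arrays compared or with array weights, and 0 with a pseudocount of 64 or at an adjusted p under 0.01. The count of 6 higher in REC than in CH was 11 with median centring, 3 with a pseudocount of 64, and 10 with no fold limit or a 1.5-fold limit. Leaving out 1 array gave 6 to 8 higher and 0 to 3 lower in CH (1 without CH replicate 1, CH replicate 2 or NX replicate 3, and 0 without CH replicate 4, NX replicate 2 or NX replicate 4), 2 to 3 lower in REC against NX, and 6 to 8 higher and 7 to 8 lower in REC against CH. With the replicate number as a block the counts were 6 higher and 2 lower in CH, 0 and 3 in REC against NX, and 6 and 7 in REC against CH, and Atg7 lost its CH call (adjusted p = 0.066), the only call of a gene that the block changed. The numbers were not taken as pairs: deviations of same-numbered arrays correlated at -0.20 to 0.44, over 0.1 in 3 of 12 pairs, and an array correlated best with its own number in another group in 8 of 24 cases. Beyond the reversals given with the results, Map1lc3a in REC against CH was -0.09 as reported, 0.22 with median centring, 2.13 with scaling on the hybridization controls and -0.26 to 0.17 on leaving out 1 array, the highest without CH replicate 4. Averaging the probe sets of a gene, Map1lc3b in REC against NX was 0.09, Atg3 in REC against CH was -0.01 and in REC against NX -0.30, Map1lc3a minus Map1lc3b in CH 0.66, Gabarap minus Gabarapl2 in CH -0.34 and Map1lc3b minus Gabarap in REC 0.30. The scaling on the hybridization controls also gave -0.52 for Map1lc3a in CH, 0.60 for Gabarap in REC against NX and 0.44 for Atg4b in REC against CH. On leaving out 1 array, the differences in CH ran from -0.04 to 0.11 for Gabarap minus Gabarapl2 (-0.01 without CH replicate 1), from -0.25 to 0.10 for Map1lc3b minus Gabarap and from -0.15 to 0.05 for Map1lc3b minus Gabarapl2, each sign turned without NX replicate 1. The causes were not tested. Dim probe sets limit Atg7, Atg5 and Atg3 most, and the 4 arrays of a group allow no exact p below 0.029.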
